A study of Mus musculus with 22 samples.

Results

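The genes described here encode folding machinery of the cell: HSP70 and HSP90 chaperones, their J-protein partners, the cytosolic chaperonin CCT with its partner prefoldin, the mitochondrial chaperonin, small heat shock proteins and BAG proteins. They were taken by symbol from the array annotation, as probes with 1 gene symbol beginning with Hsp, Dnaj, Cct and a digit, Pfdn, Vbp1, Bag and a digit, or Stip1. The stress-inducible Hspa1a, Hspa1b and Hspb1, the ER chaperone Hspa5 and the matrix proteoglycan Hspg2 were left out. No other gene was removed for being induced by stress, so the list is not limited to constitutive genes. This gave 68 of the 10500 probes on the array, for 66 of the 9230 genes named on it. Of these, 55 probes were bright enough and often enough measured to be tested, and 13 were not. The 68 probes comprised 8 for HSP70 and HSP110 proteins, 2 for HSP90 proteins (Hsp90aa1 and Hsp90b1, with none for Hsp90ab1), 1 each for Stip1 and Hspbp1, 4, 12 and 16 for J-proteins of classes A, B and C, 9 for CCT, 3 for prefoldin, 2 for the mitochondrial chaperonin, 6 for small heat shock proteins and 4 for BAG proteins.

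As background, HSP70 proteins bind short hydrophobic stretches of unfolded proteins in a cycle driven by ATP. J-proteins bring the substrate and stimulate ATP hydrolysis, nucleotide exchange factors such as HSP110, BAG proteins and Hspbp1 reset the cycle, and Stip1 passes clients on to HSP90. Prefoldin hands newly made actin and tubulin to CCT, a ring-shaped chamber in which they fold, and both proteins are in demand in a neural plate that is bending and dividing.

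The anterior neural tube was dissected from mouse embryos, and its RNA was measured on 22 single-colour CodeLink arrays, each with 1 sample. All dams were Folr2-/- knockouts, lacking the folate-binding protein that the labels also call Folbp2, so no array here comes from wild-type embryos. They received intraperitoneal injections on gestational days (GD) 7 and 8, both at hour 12, with either sodium arsenate (9.6 mg As per kg) or water alone (10 µL per g). Embryos of 3 stages were collected, GD8:15, GD9:00 and GD9:12, at 3, 12 and 24 h from the later injection. The arsenic groups held 4, 3 and 4 arrays at these stages, and the water groups 4, 4 and 3. The study asked how arsenic altered expression while the neural tube closes, and the same arrays give the course over stages within each treatment. The labels do not say whether the arrays of a group came from separate dams, so a p-value here reflects only the spread among samples, which may be partly technical. The RNA was amplified before labelling, and in such bulk samples fewer cells of a type and less RNA per cell cannot be told apart.

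Values below are log2 intensities after quantile normalisation of the deposited intensities, and differences are on the same scale with their standard error (SE) from a limma fit over all arrays. A difference is said to have passed the test where its Benjamini-Hochberg adjusted p over 7833 probes lay under 0.05. The authors had brought the arrays of each stage to a common mean of 600, 500 and 1000, and array medians lay between 123 and 291. Some arrays had runs of neighbouring probes with low signal, covering 14%, 16.1% and 9.75% of the probes of water GD9:00 replicates 1, 2 and 4 and 9.84% of arsenic GD8:15 replicate 4. These runs held 28 of the 1210 values of the tested chaperone probes. Of the 12 neural tube markers listed, 9 were on the array and all 9 were tested, with a summed intensity of 2420 to 4630 in arsenic arrays and 2591 to 4749 in water arrays. Heart and muscle markers summed to 6099 to 13122 in arsenic arrays and 18690 to 37358 in water arrays at GD8:15, without overlap. Of the 9 tested markers of this list, 2 were then higher in arsenic arrays, with a median difference of -0.312, and 0 passed the test. At GD9:00 all 9 were higher in arsenic arrays, with a median of 0.357, 0 passed and their sums overlapped. The sums of 3 other lists were also apart: head mesenchyme and neural crest at GD8:15 (2585 to 4692 in arsenic arrays and 4865 to 6282 in water arrays), and at GD9:12 endothelium (1472 to 1604 in arsenic arrays and 1256 to 1427 in water arrays) and surface ectoderm (1178 to 1357 in arsenic arrays and 1057 to 1172 in water arrays). Xist, read for embryo sex, had a mean log2 of 8.426, 10.07 and 7.061 in arsenic arrays at GD8:15, GD9:00 and GD9:12. In water arrays its means were 7.063, 7.533 and 8.404. The part of these markers and of embryo sex in the differences below was not tested. The number in each sample title falls into 4 series, called title codes here, and the labels do not say what it means. All arsenic arrays at GD8:15 carried 1 code and all later arsenic arrays another. Of the GD8:15 arrays only water replicate 3 shared a code with later arrays. With the code as a block, every comparison of a later stage with GD8:15 is therefore tied across codes by that array alone. Whether a call is lost or kept there cannot tell an effect of the code from that of using fewer arrays.

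The promoters printed here are those of chaperone genes that hold, upstream of their start, the binding motif of heat shock factor or that of the ER stress response, the known regulators of induced chaperone genes. Of the 66 genes, 54 were matched to RefSeq promoters (GRCm38.p6), with 71 promoter windows of 250 bases before to 50 bases after a start. A heat shock element of 3 units, GAANNTTCNNGAA or TTCNNGAANNTTC on either strand, was found in 6 of the 71 windows (8.45%) and in 198 of 32851 windows of all genes (0.603%). Counted by gene, it was found in 4 of the 54 members and in 179 of 27025 genes with promoters (0.662%). The member windows are not separate sites: those of Dnajb6 overlap, as do those of Hsph1, and Hspd1 and Hspe1 share the same element. The element lay before the start of Hspd1, Hspe1 and Dnajb6, and after the start of Hsph1. The 2-unit form GAANNTTC or TTCNNGAA, which the longer one contains, was found in 21.1% of member windows and 15.1% of all. The ER stress element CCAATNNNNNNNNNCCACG was found in 2 member windows (2.82%, against 0.119% of all), those of Hsp90b1 and Dnajc3. In the stretches upstream of the start that follow, capitals mark these motifs.
Hspe1, chr1:55087988-55088147, plus strand: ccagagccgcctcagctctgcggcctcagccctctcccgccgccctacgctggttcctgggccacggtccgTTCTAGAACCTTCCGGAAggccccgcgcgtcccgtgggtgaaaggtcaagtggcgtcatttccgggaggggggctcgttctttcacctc
Dnajb6, chr5:29735738-29735897, plus strand: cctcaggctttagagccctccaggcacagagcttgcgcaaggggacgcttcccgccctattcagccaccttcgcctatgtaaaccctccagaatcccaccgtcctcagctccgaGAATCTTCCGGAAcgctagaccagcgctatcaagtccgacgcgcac
Hsp90b1, chr10:86705445-86705674, minus strand: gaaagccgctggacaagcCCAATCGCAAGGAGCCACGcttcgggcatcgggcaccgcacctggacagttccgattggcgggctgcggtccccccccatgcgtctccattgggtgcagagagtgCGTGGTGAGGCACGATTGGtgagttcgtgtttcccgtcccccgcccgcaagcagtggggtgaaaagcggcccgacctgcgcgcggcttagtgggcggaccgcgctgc
Dnajc3, chr14:118937772-118937931, plus strand: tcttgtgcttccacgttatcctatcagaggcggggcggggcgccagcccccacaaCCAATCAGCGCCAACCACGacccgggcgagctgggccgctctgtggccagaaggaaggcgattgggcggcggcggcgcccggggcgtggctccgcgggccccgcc
The starts of Hspe1 and Hspd1 face away from each other a short way apart, so both genes share the first stretch. A match of letters is a description of the sequence and shows neither binding nor use of the motif in these embryos.

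Arsenic against water was the study's own question. No chaperone probe passed the test at any stage: 0 of 55 at GD8:15, at GD9:00 and at GD9:12, against 0% of the 7833 probes at each stage. At an unadjusted p under 0.05 the counts were 2 of 55 at GD8:15 (7.29% of all probes), 7 of 55 at GD9:00 (12.6% of all probes) and 2 of 55 at GD9:12 (1.28% of all probes), and all 11 of these differences were lower in arsenic arrays, as were 3.29%, 8.02% and 0.779% of all probes at that p. The median difference of the 55 probes was 0.003, -0.102 and 0.029 at the successive stages, beside 0.001, 0.006 and -0.013 over all probes. Arsenic arrays were higher for 28, 21 and 32 of the 55, beside 50.1%, 51% and 46.2% of all probes. The median SE of a chaperone difference was 0.246 to 0.266, against 0.184 to 0.198 over all probes. The lowest adjusted p of a member was 0.605 at GD8:15, 0.262 at GD9:00 and 1 at GD9:12.

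**Figure D1:**
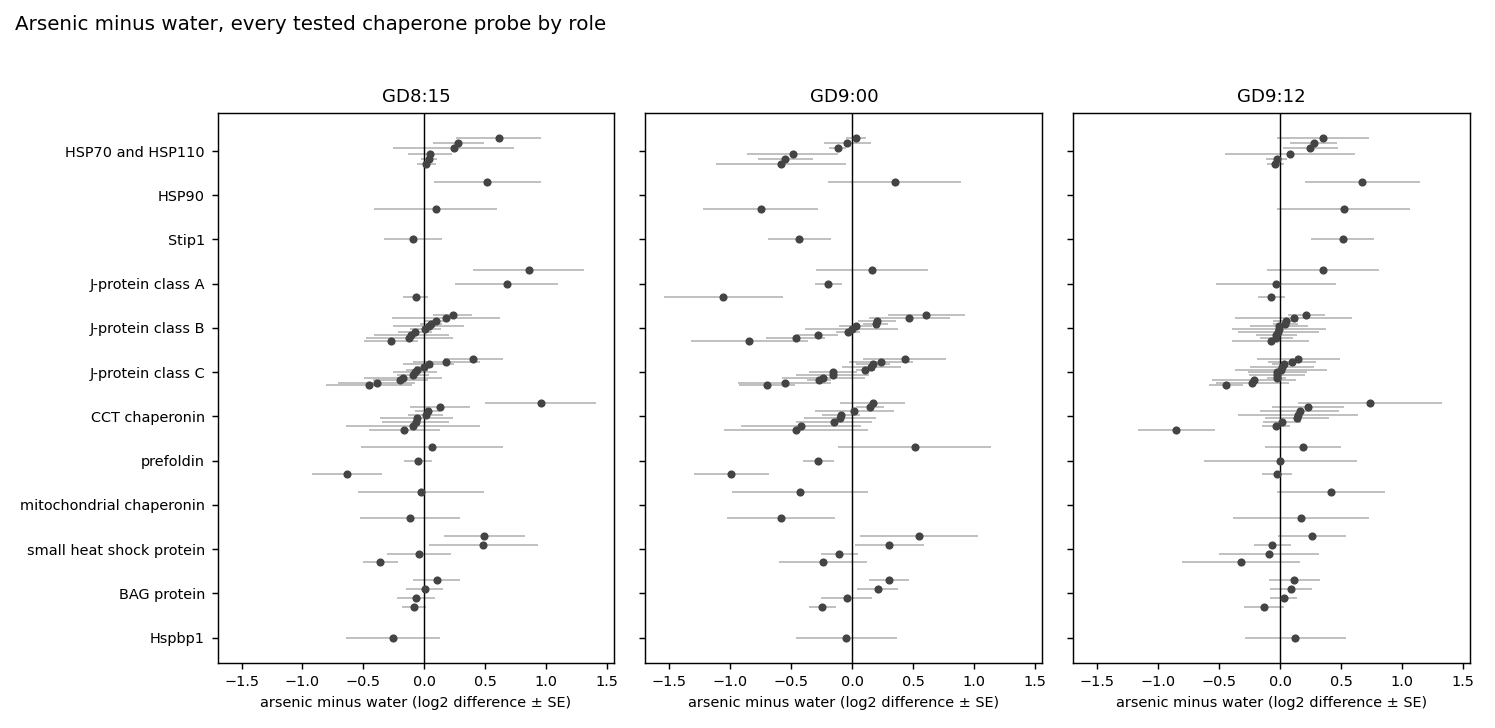
Arsenic minus water differences (log2 intensity, with bars of 1 SE) of the 55 tested chaperone probes, ordered by role, at GD8:15, GD9:00 and GD9:12. None passed the test at any stage, and the medians of 0.003, -0.102 and 0.029 lie near 0.

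Prefoldin subunit Pfdn6 had the lowest adjusted p at GD9:00. At GD8:15 Pfdn6 read 8.85, 9.98, 9.05 and 10.19 in arsenic arrays and 10.30, 10.23, 9.82 and 10.26 in water arrays. At GD9:00 it read 9.01, 8.95 and 8.06 in arsenic arrays and 9.83, 10.06, 9.29 and 9.48 in water arrays, and the groups did not overlap. At GD9:12 Pfdn6 read 7.97, 8.26, 8.80 and 8.49 in arsenic arrays and 8.00, 8.47 and 8.12 in water arrays, with overlap. The differences were -0.64 ± 0.29 (adjusted p = 0.646), -0.99 ± 0.31 (adjusted p = 0.262) and 0.18 ± 0.31 (adjusted p = 1), and none passed. The other prefoldin probes gave -0.28 ± 0.13 for Pfdn1 and 0.51 ± 0.63 for Vbp1 at GD9:00, with adjusted p of 0.375 and 0.77. Groups of arsenic and water arrays did not overlap for 0 of 55 members at GD8:15 (3.84% of all probes), 5 at GD9:00 (9.64% of all probes) and 2 at GD9:12 (5% of all probes). At GD9:00 these were Pfdn6, Pfdn1, Dnajc4 and Dnajc15, lower in arsenic arrays, and Dnajc1, higher. At GD9:12 they were Stip1 and the brighter Cct4 probe, both higher.

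In the HSP70 system, Hspa8, the constitutive cytosolic HSP70, gave differences of 0.61 ± 0.35, -0.49 ± 0.38 and 0.35 ± 0.38 at the successive stages (adjusted p = 0.796, 0.618 and 1). Dnaja1, a farnesylated cytosolic J-protein that works with Hspa8, gave 0.86 ± 0.45, -1.06 ± 0.49 and -0.03 ± 0.49 (adjusted p = 0.767, 0.384 and 1). Hspa9, the mitochondrial HSP70, gave -0.55 ± 0.23 at GD9:00, with an adjusted p of 0.353. Stip1, the scaffold between HSP70 and HSP90, read 0.51 ± 0.26 higher at GD9:12, where its groups did not overlap, with an adjusted p of 1. For Hsp90aa1, a cytosolic HSP90, the differences were 0.09 ± 0.50, 0.35 ± 0.55 and 0.52 ± 0.55, and for Hsp90b1, the HSP90 of the ER, they were 0.52 ± 0.44, -0.75 ± 0.47 and 0.67 ± 0.47. Dnajb1, the J-protein that accompanies heat-induced HSP70, gave 0.23 ± 0.16, -0.28 ± 0.17 and -0.03 ± 0.17.

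The CCT subunits did not move as a group with arsenic. Cct5 had the largest difference of any member at GD8:15, 0.95 ± 0.46 (adjusted p = 0.688), and -0.42 ± 0.49 and 0.15 ± 0.49 later. The brighter Cct4 probe gave -0.09 ± 0.55, -0.46 ± 0.59 and 0.74 ± 0.59. Cct3 gave -0.16 ± 0.29, -0.15 ± 0.31 and -0.85 ± 0.31, the last at an adjusted p of 1. The differences of Cct2, Cct6a, Cct6b, Cct7 and the dimmer Cct4 probe lay between -0.10 and 0.23 at all stages. Both mitochondrial chaperonin genes, whose shared upstream stretch holds the 3-unit heat shock element shown above, were also without a difference that passed: Hspd1 gave -0.12 ± 0.41, -0.59 ± 0.44 and 0.42 ± 0.44, and Hspe1 -0.02 ± 0.52, -0.43 ± 0.56 and 0.17 ± 0.56. Dnajb6 and Hsph1, which carry the element before and after their start, gave 0.18 ± 0.45, -0.84 ± 0.48 and 0.11 ± 0.48, and 0.04 ± 0.06, -0.12 ± 0.07 and -0.04 ± 0.07.

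Further members had among the lowest p of their direction without passing, and none of the higher ones reached an unadjusted p under 0.05. On the higher side at GD9:00 these were Dnajb7 at 0.61 ± 0.32, Bag3, a BAG protein of selective autophagy, at 0.30 ± 0.16 and Dnajb13, a J-protein of sperm flagella, at 0.19 ± 0.10 (adjusted p = 0.436, 0.454 and 0.454). Dnajc12, a co-chaperone of aromatic amino acid hydroxylases, gave -0.70 ± 0.23 at GD9:00 (adjusted p = 0.274), and Dnajc4 -0.27 ± 0.10 (adjusted p = 0.307). Dnajc4 turned to 0.196 with the authors' own scaling, which moved the median of all probes at GD9:00 by 0.433, and to 0.302 as a difference of group medians of the deposited intensities. Dnajc1, a J-protein of the ER membrane, gave -0.45 ± 0.14 at GD9:12. Hspb2, a small heat shock protein known from muscle, read 7.91, 7.44, 7.25 and 7.88 in arsenic arrays and 7.78, 7.79, 8.03 and 8.34 in water arrays at GD8:15, a difference of -0.36 ± 0.14 (adjusted p = 0.605) that turned to 0.116 with those group medians. Its groups overlapped, and the summed heart and muscle markers given above were lower in the same arsenic arrays. The part of these markers in this value was not tested. Averaged over the stages, 2 members reached an unadjusted p under 0.05 (5.72% of all probes), Pfdn6 at -0.48 ± 0.18 and Cct3 at -0.39 ± 0.18, and 0 passed the test (lowest adjusted p = 0.865). The F test for a change of the arsenic difference between stages also passed for 0 of 55 members, with 4 at an unadjusted p under 0.05 (6.46% of all probes). Its lowest unadjusted p among members was 0.0186, for Dnajc1 (adjusted p = 0.731).

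The inducible genes left out of the list did not pass either. Hspa1b gave 1.19 ± 0.43, 1.69 ± 0.46 and 0.15 ± 0.46 at the successive stages (adjusted p = 0.565, 0.243 and 1), and Hspa1a gave 1.04 ± 0.34, 1.07 ± 0.37 and 0.05 ± 0.37 (adjusted p = 0.518, 0.288 and 1). At GD8:15 every arsenic array lay above every water array for both genes, and groups did not overlap for 3.84% of all probes. Hspa1b then read 9.79, 10.24, 9.49 and 9.86 in arsenic arrays and 9.05, 8.67, 8.40 and 8.50 in water arrays. Hspa1a read 7.86, 8.84, 7.60 and 9.21 in arsenic arrays and 7.33, 7.36, 7.39 and 7.30 in water arrays. At GD9:00 replicate 2 of the arsenic arrays lay within the range of the water arrays for both genes: Hspa1b read 11.09, 8.51 and 11.35 in arsenic arrays and 8.88, 8.75, 8.43 and 8.45 in water arrays, and Hspa1a read 9.43, 7.37 and 8.71 in arsenic arrays and 7.64, 7.43, 7.33 and 7.34 in water arrays. Hspb1 gave -0.43 ± 0.14, 0.40 ± 0.15 and 0.10 ± 0.15 (adjusted p = 0.516, 0.315 and 1).

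Stage differences passed the test for some members. In arsenic arrays, at GD9:00 against GD8:15, 3 rose and 1 fell (7.27%, beside 4.21% of all probes, 2.4% up and 1.81% down), and at GD9:12 against GD9:00, 1 rose and 2 fell (5.45%, beside 3.88% of all probes, 1.9% up and 1.98% down). At GD9:12 against GD8:15, 6 rose and 5 fell (20%, beside 13.8% of all probes, 7.23% up and 6.59% down). With the authors' scaling these splits were 0 and 2, 14 and 0, and 17 and 1, on a median of all probes of -0.256, 0.33 and 0.0549. In the comparisons with GD8:15 the title code and the stage cannot be told apart in arsenic arrays. With the code as a block 0 members passed, in a fit that ties GD8:15 to later stages only through water GD8:15 replicate 3. This loss therefore does not show an effect of the code. Leaving out a single arsenic array also lowered these small counts: to 2 at GD9:00 against GD8:15 without GD8:15 replicate 1 or GD9:00 replicate 1 or 2, to 1 at GD9:12 against GD9:00 without GD9:00 replicate 1 or any GD9:12 array, and to 7, 5 and 6 at GD9:12 against GD8:15 without GD8:15 replicate 3, GD9:12 replicate 2 and GD9:12 replicate 3.

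In water arrays, which share no array with the arsenic groups, 12 members rose and 4 fell at GD9:00 against GD8:15, 29.1% of the 55 beside 15% of all probes (8.16% rose and 6.83% fell). In the next interval, GD9:12 against GD9:00, 2 rose and 11 fell, 23.6% beside 11.3% of all probes (3.83% rose and 7.44% fell). Over the whole span, GD9:12 against GD8:15, 3 rose and 4 fell, 12.7% beside 7.71% of all probes (3.77% rose and 3.94% fell). The median member differed by 0.184 in the earlier interval and by -0.232 in the later one, while all probes had medians of -0.018 and 0.032. The later median was -0.0805 without water GD9:00 replicate 1 and -0.0668 with array weights, the earlier one 0.0741 with the title code as a block, and with the authors' scaling they were -0.278 and 0.59. The split depends on the scaling: with the authors' scaling, which moved the median of all probes by -0.492, 0.785 and 0.27 in these comparisons, 6 rose and 15 fell, then 29 rose and 4 fell, then 15 rose and 2 fell. With the title code as a block 1, 7 and 1 members passed, the first being Cct5 and the last Dnajc1. That fit takes GD8:15 from water replicate 3 alone and leaves out GD9:12 replicate 1, the only array of its code. Leaving out a water array of GD9:12 (replicate 1, 2 or 3) left 7, 8 or 5 members at GD9:12 against GD9:00 and 4, 5 or 4 at GD9:12 against GD8:15.

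The treatments gave the same direction for most members: 44, 42 and 47 of 55 had the same sign in arsenic and water arrays over the 3 comparisons (68.2%, 65.8% and 74.5% of all probes). All 4 members that passed at GD9:00 against GD8:15 in arsenic arrays were among the 16 that passed in water arrays, namely Stip1, Cct7, Dnajc14 and Hspbp1. All 3 at GD9:12 against GD9:00, Hspa8, Hspb11 and Dnajc1, were among the 13 of the water arrays. Over the whole span, 7 of the 11 in arsenic arrays were the 7 of the water arrays: Vbp1, Dnajb6, Dnajc1, Hspbp1, Hsp90b1, Pfdn6 and Hspb2. Over all probes, the share of arsenic calls also made in water arrays in the same direction was 69.1%, 64.1% and 38.2%. A stage difference that passed in one treatment and not in the other does not show that they differ, and the F test given above, which tests whether the arsenic difference changed between stages, passed for no member.

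**Figure D2:**
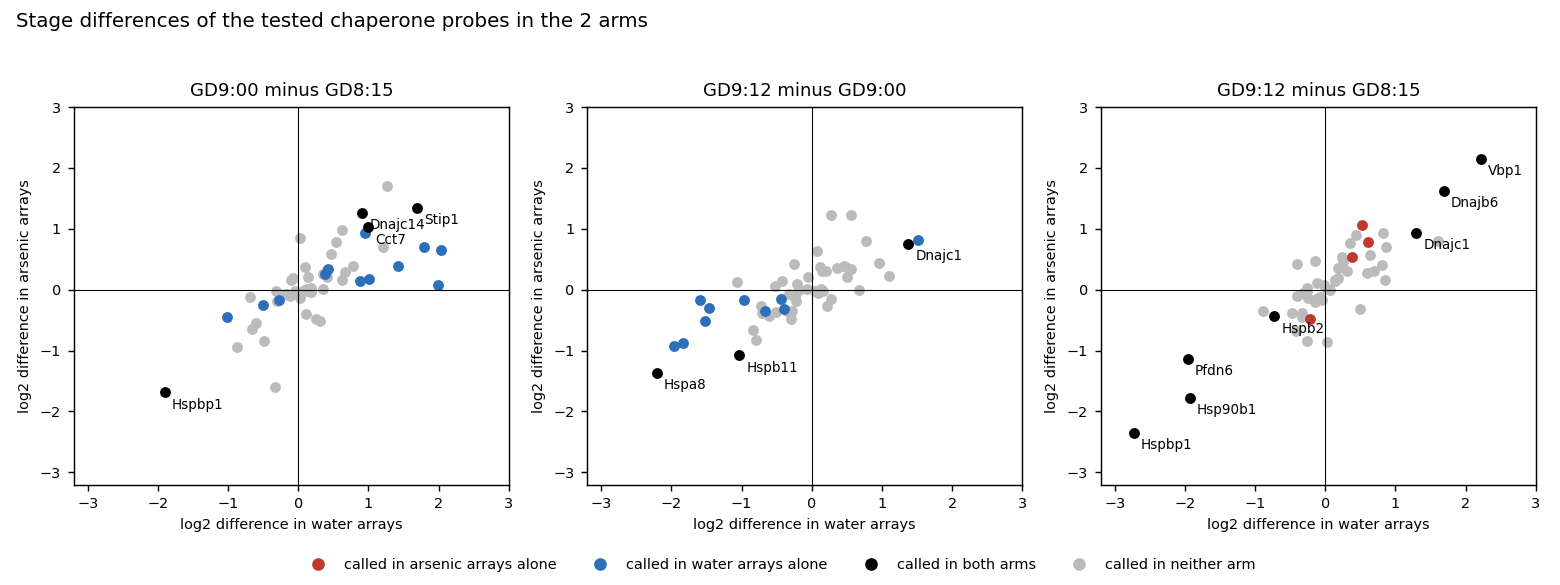
Stage differences (log2 intensity) of the 55 tested chaperone probes in arsenic arrays (vertical axis) and in water arrays (horizontal axis), with 1 panel for each pair of stages. Filled black points passed the test in both treatments, 4, 3 and 7 probes in the successive panels, and all lie in the quadrants of equal sign.

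Hspa8, Dnaja1, Stip1 and Hspa9 shared a course in water arrays, high at GD9:00 between lower stages. At GD8:15 Hspa8 read 12.42, 12.55, 12.63 and 13.84 in arsenic arrays and 12.09, 12.36, 12.81 and 11.73 in water arrays. At GD9:00 Hspa8 read 14.05, 13.06 and 13.56 in arsenic arrays and 14.62, 14.33, 13.59 and 13.63 in water arrays. At GD9:12 Hspa8 read 12.16, 12.60, 12.63 and 11.35 in arsenic arrays and 11.95, 11.80 and 11.76 in water arrays. Among arsenic arrays 1 of GD8:15, replicate 4, lay within the range of GD9:00, while every water array of GD9:00 lay above every water array of the other stages. In arsenic arrays Hspa8 differed by 0.70 ± 0.38 at GD9:00 against GD8:15 (adjusted p = 0.344) and fell by 1.37 ± 0.38 at GD9:12 against GD9:00 (adjusted p = 0.0482). This fall lost its call in 12 of 17 alternatives, among them leaving out GD9:00 replicate 1 or 3 or any GD9:12 array (-1.52 to -1.09), and turned to 0.0387 with the authors' scaling. In water arrays Hspa8 rose by 1.80 ± 0.35 (adjusted p = 0.00283) and then fell by 2.21 ± 0.38 (adjusted p = 0.0013). This rise was lost with the title code as a block, whereas the fall was kept.

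Stip1 followed the same course with little spread. At GD8:15 Stip1 read 8.22, 7.93, 7.68 and 7.93 in arsenic arrays and 8.57, 7.70, 8.30 and 7.55 in water arrays. At GD9:00 Stip1 read 9.64, 9.53 and 8.68 in arsenic arrays and 10.05, 9.66, 9.26 and 9.92 in water arrays. At GD9:12 Stip1 read 8.40, 8.63, 8.22 and 8.37 in arsenic arrays and 7.66, 8.15 and 7.86 in water arrays. Within each treatment no array of GD9:00 overlapped the other stages. Stip1 rose by 1.34 ± 0.26 in arsenic arrays and by 1.69 ± 0.24 in water arrays at GD9:00 (adjusted p = 0.00601 and 0.00023). Neither rise passed with the title code as a block. The arsenic rise was also lost with the authors' scaling and in a fit of only the compared groups. At GD9:12 against GD9:00 the difference was -0.88 ± 0.26 in arsenic arrays (adjusted p = 0.0664), and Stip1 fell by 1.83 ± 0.26 in water arrays (adjusted p = 0.000309).

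Dnaja1 read 8.69, 9.84, 9.52 and 10.15 in arsenic arrays and 8.65, 8.52, 9.66 and 7.95 in water arrays at GD8:15. At GD9:00 Dnaja1 read 10.03, 10.24 and 8.61 in arsenic arrays and 10.09, 11.76, 9.89 and 10.98 in water arrays, and at GD9:12 8.56, 9.09, 8.97 and 8.15 in arsenic arrays and 9.06, 8.87 and 8.25 in water arrays. The arsenic arrays of GD9:00 overlapped both neighbouring stages, whereas water arrays of GD9:00 lay above all of the other stages. In arsenic arrays the differences of GD9:00 from GD8:15 and of GD9:12 from GD9:00 were 0.07 ± 0.49 and -0.93 ± 0.49 for Dnaja1, and neither passed. In water arrays Dnaja1 rose by 1.99 ± 0.45 and then fell by 1.96 ± 0.49 over these intervals (adjusted p = 0.00831 and 0.0157). Hspa9 gave 0.18 ± 0.23 and -0.18 ± 0.23 in arsenic arrays, while in water arrays it rose by 1.01 ± 0.21 and then fell by 0.97 ± 0.23 (adjusted p = 0.00452 and 0.0102). Without water GD9:12 replicate 3 these falls did not pass, at -1.71 for Dnaja1 and -0.866 for Hspa9. The water rises of both genes were lost with the title code as a block. Hspa14, a ribosome-associated HSP70, fell by 0.66 ± 0.19 at GD9:12 against GD9:00 in water arrays (adjusted p = 0.033). Hspa4 and Hsph1, which are HSP110 proteins, and Hspa1l, an HSP70 best known from testis, passed in no comparison, and Hspa2 and Hspa4l were too dim to be tested.

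Hspbp1, a nucleotide exchange factor of HSP70, went the other way. At GD8:15 Hspbp1 read 13.13, 12.36, 10.77 and 11.64 in arsenic arrays and 12.81, 12.39, 11.39 and 12.34 in water arrays. At GD9:00 Hspbp1 read 10.44, 10.09 and 10.33 in arsenic arrays and 10.81, 10.15, 10.18 and 10.19 in water arrays. At GD9:12 Hspbp1 read 9.43, 9.81, 10.03 and 9.24 in arsenic arrays and 10.04, 9.21 and 9.26 in water arrays. In both treatments every GD8:15 array lay above every later array, and in arsenic arrays each stage lay below the one before. At GD9:12 against GD8:15 it fell by 2.35 ± 0.39 in arsenic arrays and fell by 2.73 ± 0.42 in water arrays (adjusted p = 0.000684 and 0.000864), the steepest falls of any member in these comparisons. Neither fall passed with the title code as a block.

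**Figure D3:**
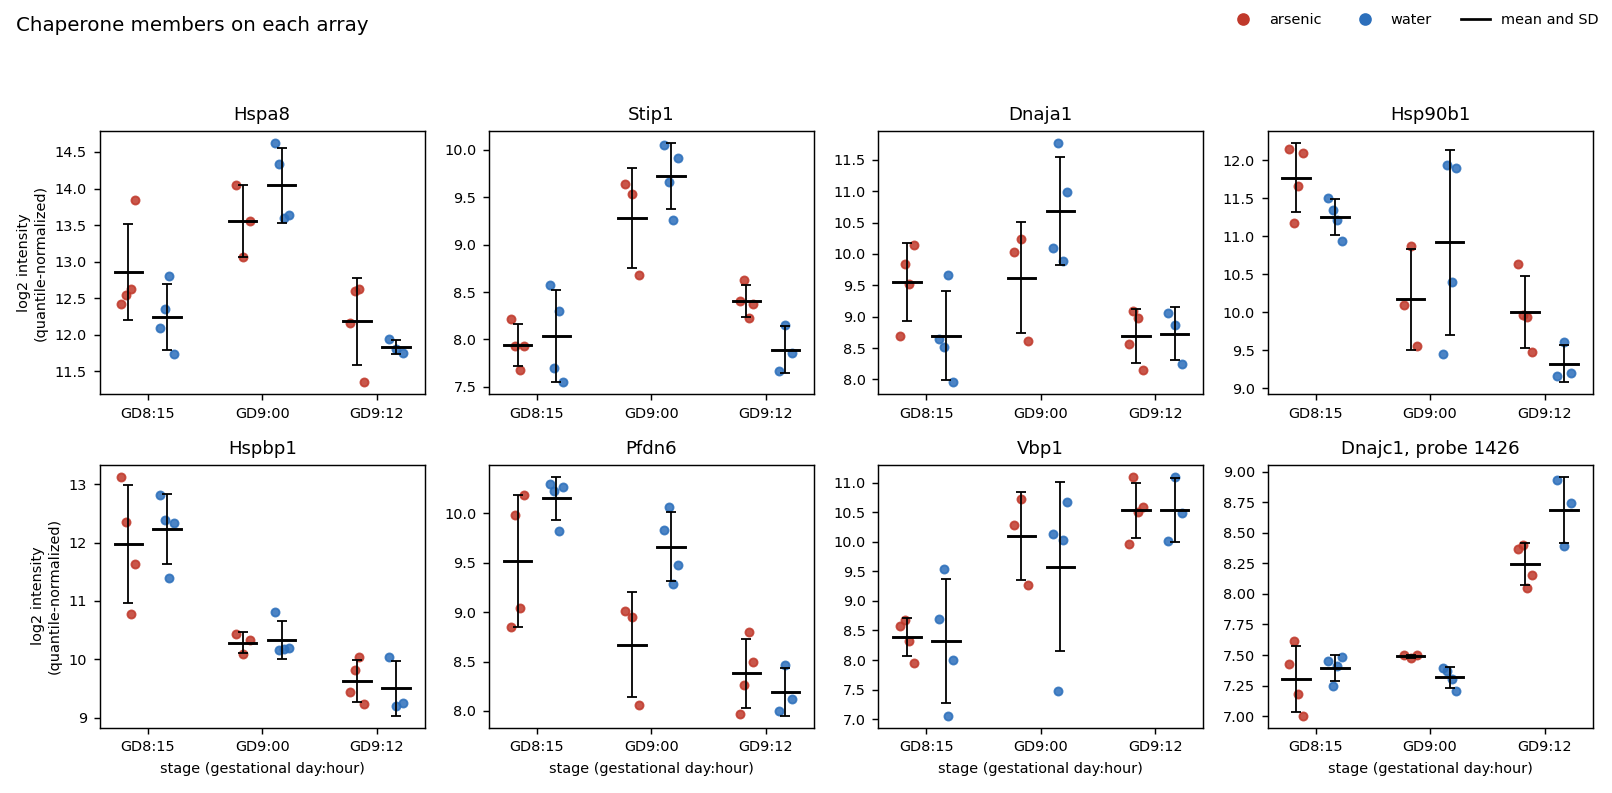
Log2 intensity of 8 chaperone probes in every array, by stage from GD8:15 to GD9:12, with arsenic arrays to the left of water arrays and a bar at each group mean. By group mean, Hspa8 and Stip1 are highest at GD9:00, and so is Dnaja1 in water arrays, while its arsenic arrays of GD8:15 and GD9:00 overlap. Hspbp1 and Pfdn6 have their lowest means at GD9:12. The brighter Dnajc1 probe stands above its earlier level only at GD9:12.

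Among HSP90 genes, Hsp90b1 fell with stage. At GD8:15 Hsp90b1 read 12.16, 11.18, 11.67 and 12.10 in arsenic arrays and 11.51, 11.35, 11.22 and 10.94 in water arrays. At GD9:00 Hsp90b1 read 10.09, 10.87 and 9.55 in arsenic arrays and 9.45, 11.94, 10.40 and 11.90 in water arrays. At GD9:12 Hsp90b1 read 10.63, 9.96, 9.94 and 9.47 in arsenic arrays and 9.16, 9.61 and 9.20 in water arrays. The GD9:12 arrays lay below all GD8:15 arrays of their own treatment, while the water arrays of GD9:00 spread widely, with replicate 1 in a run of low signal. At GD9:12 against GD8:15 Hsp90b1 fell by 1.77 ± 0.44 in arsenic arrays and fell by 1.93 ± 0.47 in water arrays (adjusted p = 0.0117 and 0.0171). Both calls were lost with the authors' scaling (-0.829 and -1.17) and with the title code as a block. The call in water arrays was also lost without GD9:12 replicate 1 or 3 (-1.85 and -1.86). Dnajc3, an ER J-protein whose promoter carries the same ER stress element, did not share this course: it rose by 1.06 ± 0.31 in arsenic arrays (adjusted p = 0.0303) and differed by 0.53 ± 0.34 in water arrays (adjusted p = 0.395). The Dnajc3 call was lost without GD8:15 replicate 1, 3 or 4 or GD9:12 replicate 2 or 3 (0.834 to 1.06) and was 0.594 with the title code as a block. Hsp90aa1 passed in no comparison, and its water arrays at GD9:00 read 12.71, 13.27, 11.11 and 10.79, of which the last 2 lay in runs of low signal.

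The CCT chaperonin did not change as a unit over the stages. Of 8 tested probes, 1 rose at GD9:00 against GD8:15 in arsenic arrays and 3 in water arrays (2.4% and 8.16% of all probes). At GD9:12 against GD9:00 in water arrays 1 rose (3.83% of all probes). At GD8:15 Cct5 read 10.30, 9.48, 8.66 and 10.30 in arsenic arrays and 9.13, 9.25, 7.52 and 9.02 in water arrays. At GD9:00 Cct5 read 11.001, 10.29 and 9.74 in arsenic arrays and 11.81, 10.36, 10.37 and 10.53 in water arrays. At GD9:12 Cct5 read 10.13, 11.10, 10.88 and 9.83 in arsenic arrays and 9.94, 10.63 and 10.44 in water arrays. Arsenic arrays of GD9:00 overlapped those of GD8:15, with a difference of 0.66 ± 0.49 (adjusted p = 0.518). Water arrays were higher at GD9:00 than at GD8:15 without overlap, by 2.03 ± 0.46 (adjusted p = 0.00733), a call kept in every alternative run. With the title code as a block it rests on GD8:15 replicate 3 alone, which at 7.52 read lowest of its group. That setting therefore does not check the rise against the other GD8:15 arrays.

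At GD8:15 Cct7 read 6.86, 7.55, 7.71 and 7.48 in arsenic arrays and 7.36, 7.20, 7.27 and 7.25 in water arrays. At GD9:00 Cct7 read 9.04, 8.37 and 7.85 in arsenic arrays and 8.82, 8.43, 8.04 and 7.73 in water arrays. At GD9:12 Cct7 read 7.44, 7.87, 7.77 and 7.28 in arsenic arrays and 7.46, 7.62 and 7.28 in water arrays. In both treatments GD9:00 stood above GD8:15 without overlap, and Cct7 rose by 1.02 ± 0.27 in arsenic arrays and 0.99 ± 0.25 in water arrays (adjusted p = 0.0341 and 0.0129). Cct2 gave 0.92 ± 0.30 in arsenic arrays (adjusted p = 0.09) and rose by 0.96 ± 0.28 in water arrays (adjusted p = 0.0257). The arsenic call of Cct7 was lost without GD8:15 replicate 1 or 4 or GD9:00 replicate 1 or 2 (0.726 to 1.06), and the water call of Cct2 without GD8:15 replicate 1, 3 or 4 or GD9:00 replicate 1 or 4 (0.73 to 0.986). That of Cct7 in arsenic arrays was also lost with the authors' scaling and in a fit of only the compared groups. Taking the title code as a block removed the Cct7 calls of both treatments and the water call of Cct2. Cct3 had its own course. At GD8:15 Cct3 read 12.03, 12.79, 11.87 and 12.97 in arsenic arrays and 13.07, 12.29, 12.43 and 12.53 in water arrays. At GD9:00 Cct3 read 12.22, 11.89 and 11.17 in arsenic arrays and 12.26, 11.94, 11.88 and 11.58 in water arrays. At GD9:12 Cct3 read 12.51, 12.90, 12.64 and 12.25 in arsenic arrays and 13.54, 12.78 and 13.95 in water arrays. Within each treatment GD9:12 lay above GD9:00 without overlap, by 0.81 ± 0.31 in arsenic arrays (adjusted p = 0.185) and 1.51 ± 0.31 in water arrays (adjusted p = 0.00507). Cct6a, Cct6b and both Cct4 probes passed in no comparison, and Cct8 was too dim to be tested. The Cct4 probes had a Pearson correlation of 0.0212 over the 22 arrays and the Dnajc1 probes one of -0.043. The dimmer probe of each pair had a mean log2 of 7.41 for Cct4 and 7.06 for Dnajc1. These correlations therefore cannot tell a probe that is too dim from one that reports another gene. Each value is that of a probe, and which gene a single probe reports is in doubt.

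**Figure D4:**
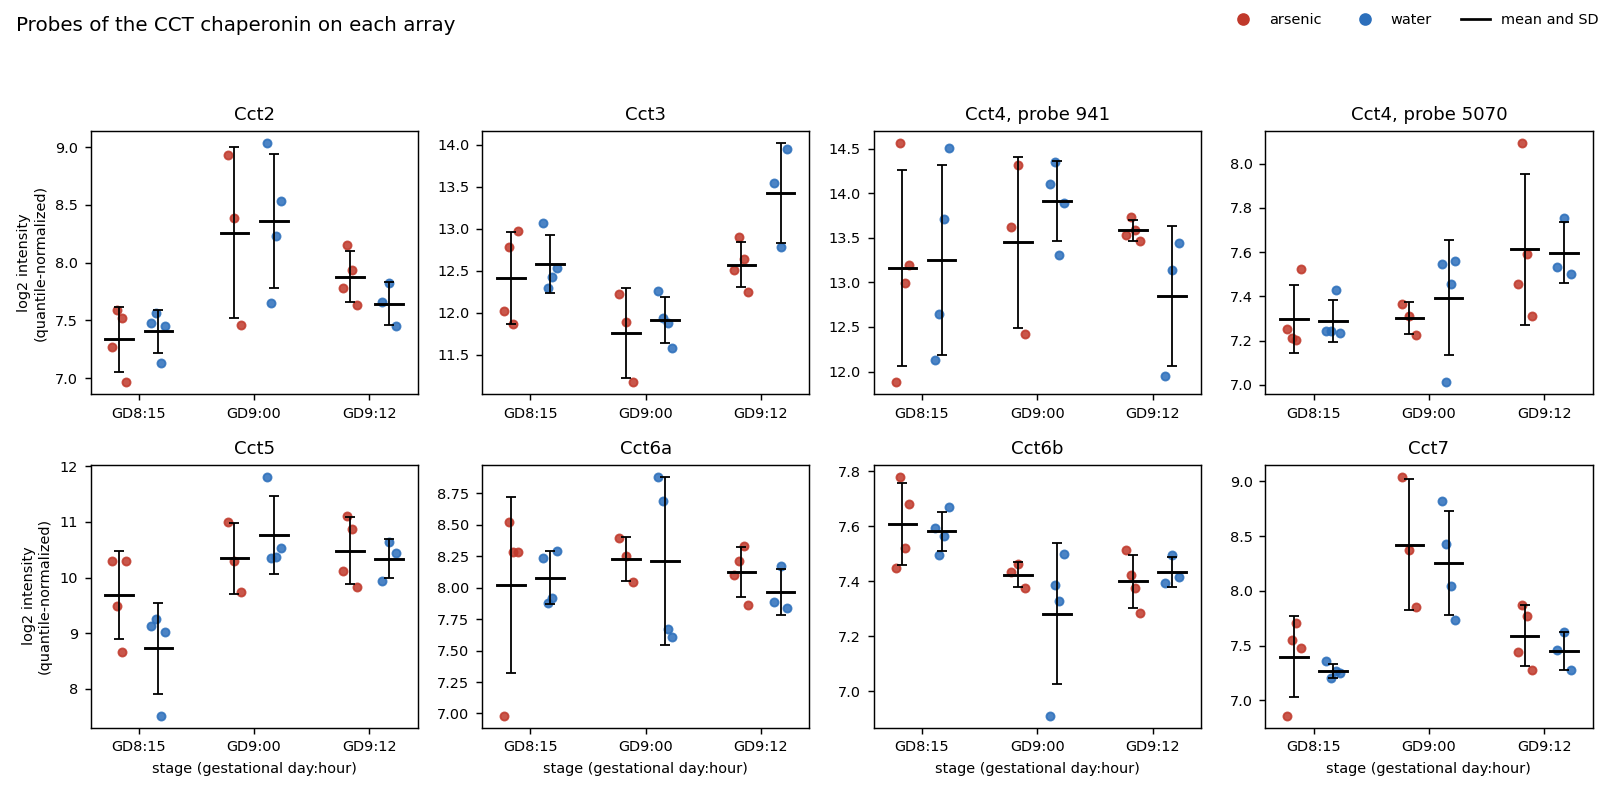
Log2 intensity of the 8 tested CCT probes in every array, by stage from GD8:15 to GD9:12, with arsenic arrays to the left of water arrays and a bar at each group mean. Cct5 and Cct7 stand higher at GD9:00 than at GD8:15 in water arrays, Cct3 is highest at GD9:12 in water arrays, and the other probes show no stage difference that passed in both treatments.

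Of the prefoldin subunits, Pfdn6 fell and Vbp1 rose. Pfdn6, whose values are given above, fell by 1.14 ± 0.29 in arsenic arrays and fell by 1.96 ± 0.31 in water arrays at GD9:12 against GD8:15 (adjusted p = 0.0135 and 0.00102). Both Pfdn6 calls were lost with the title code as a block. Vbp1 is the prefoldin subunit first found through the von Hippel-Lindau protein. At GD8:15 Vbp1 read 8.58, 8.67, 8.33 and 7.96 in arsenic arrays and 8.69, 9.53, 7.06 and 8.00 in water arrays. At GD9:00 Vbp1 read 10.29, 10.72 and 9.27 in arsenic arrays and 10.14, 7.48, 10.04 and 10.68 in water arrays. At GD9:12 Vbp1 read 9.96, 11.10, 10.50 and 10.60 in arsenic arrays and 10.02, 11.11 and 10.49 in water arrays. All GD9:12 arrays lay above all GD8:15 arrays of both treatments, and the lowest value of each water group at GD8:15 and GD9:00 lay in a run of low signal, as did the lowest arsenic value at GD8:15. Vbp1 rose by 2.15 ± 0.58 in arsenic arrays and by 2.21 ± 0.63 in water arrays (adjusted p = 0.0189 and 0.0353). The arsenic call was lost without GD9:12 replicate 2 (1.94) and with the title code as a block (3.87). The water call was lost in 8 of 17 alternatives, among them leaving out GD8:15 replicate 1, 3 or 4 or any GD9:12 array (1.79 to 2.46). Pfdn1 passed in no comparison.

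The mitochondrial chaperonin pair did not move together past the test. At GD8:15 Hspd1 read 8.70, 9.68, 10.24 and 10.30 in arsenic arrays and 9.71, 9.45, 10.54 and 9.70 in water arrays. At GD9:00 Hspd1 read 10.36, 10.40 and 8.92 in arsenic arrays and 10.13, 10.82, 9.75 and 11.22 in water arrays. At GD9:12 Hspd1 read 9.31, 9.32, 10.00 and 8.86 in arsenic arrays and 8.73, 9.40 and 8.75 in water arrays. Arsenic arrays of GD9:12 overlapped the earlier stages, while water arrays of GD9:12 lay below all water arrays of the earlier stages. The difference from GD9:00 was -0.52 ± 0.44 in arsenic arrays, and Hspd1 fell by 1.52 ± 0.44 in water arrays (adjusted p = 0.0327). The Hspd1 call was lost without water GD9:00 replicate 2 or 4 or any water GD9:12 array (-1.72 to -1.27). Its partner Hspe1 gave 0.07 ± 0.56 in arsenic arrays and -0.53 ± 0.56 in water arrays (adjusted p = 0.978 and 0.58). In each treatment replicate 2 of GD9:12 read above the other arrays of its group for Hspe1, at 10.64 in arsenic arrays and 10.28 in water arrays.

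Of the J-proteins, the ER membrane protein Dnajc1 had the clearest course. At GD8:15 its brighter probe read 7.42, 7.61, 7.18 and 7.00 in arsenic arrays and 7.45, 7.25, 7.41 and 7.49 in water arrays. At GD9:00 Dnajc1 read 7.497, 7.47 and 7.498 in arsenic arrays and 7.40, 7.37, 7.31 and 7.20 in water arrays. At GD9:12 Dnajc1 read 8.36, 8.40, 8.04 and 8.15 in arsenic arrays and 8.93, 8.39 and 8.74 in water arrays. In both treatments all GD9:12 arrays lay above all earlier arrays. Dnajc1 rose by 0.75 ± 0.14 in arsenic arrays and by 1.37 ± 0.14 in water arrays at GD9:12 against GD9:00 (adjusted p = 0.00522 and 1.34e-05), and both calls were kept in every alternative run. The other Dnajc1 probe was too dim to be tested.

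Dnajc14, an ER membrane J-protein known for receptor export, rose at GD9:00 by 1.26 ± 0.24 in arsenic arrays and 0.91 ± 0.22 in water arrays (adjusted p = 0.00602 and 0.0124). Neither Dnajc14 call was kept with the title code as a block. Its arsenic call was also lost with the authors' scaling and in a fit of only the compared groups. Dnajb6, a suppressor of protein aggregation, rose at GD9:12 against GD8:15 by 1.62 ± 0.45 in arsenic arrays and 1.69 ± 0.48 in water arrays (adjusted p = 0.0211 and 0.0368). With the title code as a block these were 0.362 and 0.486 and did not pass. The Dnajb6 call was also lost in arsenic arrays without GD8:15 replicate 3 or GD9:12 replicate 2 or 3 (1.34 to 1.52), and in water arrays without GD8:15 replicate 1, 2 or 4 or any GD9:12 array (1.39 to 1.89). Dnajb12, an ER membrane J-protein of protein degradation, rose by 0.42 ± 0.09 at GD9:00 against GD8:15 and fell by 0.40 ± 0.10 at GD9:12 against GD9:00 in water arrays (adjusted p = 0.00617 and 0.0147). Dnaja3, a mitochondrial J-protein, and Dnajc12 rose at GD9:00 in water arrays by 0.39 ± 0.10 and 0.88 ± 0.21, while Dnajb7 and Dnajc24, a protein of diphthamide synthesis, fell by 1.02 ± 0.29 and fell by 0.28 ± 0.07 (adjusted p = 0.0184, 0.011, 0.0255 and 0.0156). The Dnajb7 call was lost without water GD8:15 replicate 4 or GD9:00 replicate 1 (-0.795 and -0.675), and that of Dnajc24 without GD8:15 replicate 1 (-0.259). The GD9:00 against GD8:15 calls of Dnajb12, Dnaja3, Dnajc12, Dnajb7 and Dnajc24 were all lost with the title code as a block. Dnajb1 fell by 0.48 ± 0.16 at GD9:12 against GD8:15 in arsenic arrays (adjusted p = 0.0499), a call lost in most alternatives. The other 13 tested J-protein probes passed in no comparison: Dnaja2, Dnajb2, Dnajb3, Dnajb8, Dnajb11, Dnajb13, Dnajb14, Dnajc4, Dnajc8, Dnajc10, Dnajc15, Dnajc19 and Dnajc30. Their arsenic differences lay between -0.55 for Dnajc19 at GD9:00 and 0.67 for Dnaja2 at GD8:15. A further 8 were not tested: Dnaja4, Dnajb5, Dnajb9, Dnajc2, Dnajc22, Dnajc5b, Dnajc6 and the dimmer Dnajc1 probe.

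The small heat shock and BAG proteins gave few and mostly small differences. Hspb2 fell by 0.44 ± 0.14 in arsenic arrays and fell by 0.73 ± 0.15 in water arrays at GD9:12 against GD8:15 (adjusted p = 0.0461 and 0.00595). The arsenic call was lost in 10 of 17 alternatives, among them leaving out GD8:15 replicate 1 or 4 or any GD9:12 array (-0.475 to -0.341). The water call of Hspb2 was lost with the title code as a block. The summed heart and muscle markers were also lower at GD9:12, at 3747 to 5009 in arsenic arrays and 3493 to 5609 in water arrays, against the GD8:15 sums given above, and their part in this fall was not tested. Hspb11, which despite its symbol is a subunit of the transport complex of cilia, fell by 1.08 ± 0.28 in arsenic arrays and fell by 1.03 ± 0.28 in water arrays at GD9:12 against GD9:00 (adjusted p = 0.0383 and 0.0232). These calls were lost in 9 of 17 alternatives in arsenic arrays and in 8 of 17 in water arrays. The values were -0.313 and -0.31 with the authors' scaling, -1.13 to -0.954 without arsenic GD9:00 replicate 1 or 2 or any arsenic GD9:12 array, and -1.07 to -0.863 without water GD9:00 replicate 2 or 4 or any water GD9:12 array. Hspb8 and Hspb9 passed in no comparison, and Hspb3 and Hspb7 were not tested. Bag5, which acts on HSP70, fell by 0.43 ± 0.11 at GD9:12 against GD9:00 in water arrays, and Bag4 rose by 0.54 ± 0.16 at GD9:12 against GD8:15 in arsenic arrays (adjusted p = 0.0166 and 0.0291). The Bag4 call was lost in 7 of 18 alternatives, with 0.368 to 0.556 without GD8:15 replicate 2 or 3 or GD9:12 replicate 1 or 3, and 0.0802 with the title code as a block. Bag1 and Bag3 passed in no comparison.

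Blood markers changed over the same stages, with a summed intensity of 3902 to 27340, 2160 to 4036 and 17822 to 49799 in arsenic arrays and 4945 to 8416, 1022 to 6919 and 16182 to 45601 in water arrays at GD8:15, GD9:00 and GD9:12. Their part in the chaperone differences was not tested.

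Other genes of protein folding were read from a wider list, and some passed between stages. A list of 63 other chaperone, co-chaperone and cofactor genes had 48 on the array and 45 tested probes, of which 0 passed for arsenic against water at any stage. In arsenic arrays 2 rose and 0 fell at GD9:00 against GD8:15, 1 rose and 1 fell at GD9:12 against GD9:00, and 8 rose and 6 fell at GD9:12 against GD8:15. Over all probes 2.4%, 1.9% and 7.23% rose and 1.81%, 1.98% and 6.59% fell in these comparisons. In water arrays these counts were 6 and 2, 1 and 9, and 2 and 2, where 8.16%, 3.83% and 3.77% of all probes rose and 6.83%, 7.44% and 3.94% fell. Trap1, the mitochondrial HSP90, rose at GD9:00 by 1.63 ± 0.24 in arsenic arrays and 2.17 ± 0.24 in water arrays (adjusted p = 0.00103 and 3.75e-05). Hyou1, the HSP110 of the ER, rose by 0.59 ± 0.12 in arsenic arrays and 0.59 ± 0.11 in water arrays (adjusted p = 0.00811 and 0.00206). Clpp, the mitochondrial matrix protease, fell by 1.40 ± 0.30 in arsenic arrays and fell by 2.41 ± 0.30 in water arrays at GD9:12 against GD9:00 (adjusted p = 0.015 and 0.000145). Ptges3, the HSP90 cofactor p23, rose at GD9:12 against GD8:15 by 1.10 ± 0.22 in arsenic arrays and 1.12 ± 0.24 in water arrays (adjusted p = 0.00328 and 0.00732).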

How the data were processed

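Per the labels' protocols, total RNA was amplified with a T7 primer, labelled with biotin, hybridised to CodeLink arrays and stained with a fluorescent streptavidin. The deposited table holds linear intensities, rounded by the authors and scaled to a common mean within each stage; scanner software, background correction and scaling method are not given in the sources used here. Values of 1 or 2, 838 in all and 1 on a chaperone probe, were set to missing as placeholders. Log2 intensities were quantile normalised, and probes were tested where at least 2 arrays per group had a value and the mean lay above the lowest 25%, a mean log2 of 7.201.

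All 22 arrays entered 1 fit of 6 group means in limma 3.58.1 under R 4.3.3 (lmFit, eBayes), with Benjamini-Hochberg adjustment over 7833 probes per comparison. Figures used Python 3.11.15 and matplotlib 3.10.9, and the fit was tested on simulated data. The number of arrays limits the precision. Runs of low signal were stretches where the running median over 41 brighter probes lay below -0.5 log2. Symbols came from the platform annotation (9378 probes with 1 symbol, 8 with several, 1114 with none) and promoters from RefSeq.

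The members, roles and gene lists were chosen with earlier results of these data known. Named members are those past the threshold, at most 8 per direction, completed to 3 by lowest p, beside Hspa8, the HSP90, mitochondrial chaperonin, CCT and prefoldin genes, Stip1, Dnaja1, Dnajb1 and members with several probes. Every member is accounted for by role. The wider list is named by the same threshold, in part here. Alternatives were the authors' scaling, no and a stricter filter on dim probes, kept placeholders, masked low runs, trended and robust variances, array weights, the title code as a block, only the compared groups, leaving out each array and, for arsenic differences of named probes, group medians of the deposited intensities.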

Additional observations from a re-analysis of the deposited data

Results flagged for a closer look

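Of 156 groups of 4 arrays, over 39 chaperone probes that the text describes, 12 had an array set apart from the others of its group by more than Dixon's 95% value, and chance alone sets apart about 1 in 20. All values are log2 intensities. In arsenic arrays of GD8:15, Hspa8 read 13.84 in replicate 4 against 12.42 to 12.63 in the others, the dimmer Cct4 probe 7.523 in replicate 4 against 7.204 to 7.253, and Cct6a 6.982 in replicate 1 against 8.283 to 8.523, in a run of low signal. In arsenic arrays of GD9:12, Dnajc8 read 8.771 in replicate 1 against 9.107 to 9.126.

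In water arrays of GD8:15, replicate 3 was apart for 4 probes: Cct5 at 7.521 against 9.019 to 9.255, Pfdn6 at 9.822 against 10.23 to 10.3, the dimmer Cct4 probe at 7.428 against 7.232 to 7.245, and Hsp90aa1 at 12.51 against 10.97 to 11.17. Replicate 4 was apart for Dnajb7, at 9.862 against 8.868 to 9.014. In water arrays of GD9:00, replicate 1 was apart for Cct5 at 11.81 against 10.36 to 10.53, Hspbp1 at 10.81 against 10.15 to 10.19, and Dnaja2 at 9.612 against 11.83 to 11.93, the last in a run of low signal.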

How the results depend on the processing

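For arsenic against water, no alternative and no left-out array brought a chaperone probe past the test at any stage, on average or in the F test (0 in each). The stage counts moved. With the authors' scaling the members that passed numbered 2, 14 and 18 in arsenic arrays, and 33 at GD9:12 against GD9:00 and 17 at GD9:12 against GD8:15 in water arrays. Array weights gave 12 and 12 in the arsenic comparisons of GD9:00 with GD8:15 and of GD9:12 with GD9:00, and 22 and 17 in the same water comparisons as above. Masked low runs gave 7 at GD9:00 against GD8:15 in arsenic arrays. With the title code as a block 0 passed in both arsenic comparisons with GD8:15, and 1, 7 and 1 in water arrays. A fit of only the compared groups gave 0, 1 and 7 in arsenic arrays and 10 at GD9:00 against GD8:15 in water arrays. Fewer arrays then estimate the spread. With the title code as a block, water GD8:15 replicate 3 alone ties GD8:15 to later stages, and water GD9:12 replicate 1 drops out. How far this lowered the counts was not tested, nor was the cause in the other settings. Leaving out each array gave 2 to 6, 1 to 4 and 5 to 9 in arsenic arrays and 11 to 17, 5 to 13 and 4 to 7 in water arrays. Among the named members, sign changes came with the authors' scaling for Dnajc4 at GD9:00 (0.196), Hspb2 averaged over stages (0.115) and Hspa8 at GD9:12 against GD9:00 in arsenic arrays (0.0387), and with untested group medians of the deposited intensities for Dnajc4 at GD9:00 (0.302) and Hspb2 at GD8:15 (0.116). Calls kept in every setting were those of Dnajc1 at GD9:12 against GD9:00 in arsenic arrays, and, in water arrays, those of Cct5 at GD9:00 against GD8:15, of Cct3, Dnajc1, Hspa8, Stip1 and Pfdn6 at GD9:12 against GD9:00 and of Dnajc1 at GD9:12 against GD8:15. With the title code as a block the Cct5 call rests on water GD8:15 replicate 3, which is set apart low for this probe. Of 2 alternatives chosen after seeing the data, only the GD8:15 arrays that share the arsenic arrays' title code, and the 2 arsenic arrays of lowest correlation with their group left out, neither brought a member past the test for arsenic. No paired analysis was possible because the labels give no replicate numbers.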

Other observations

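Of the other folding genes, several took the course of Hspa8 and Stip1 in water arrays, high at GD9:00. Ppp5c, a phosphatase bound to HSP90, rose by 0.76 ± 0.13 at GD9:00 against GD8:15 and fell by 0.66 ± 0.14 at GD9:12 against GD9:00 (limma, adjusted p = 0.00134 and 0.00697). Fkbp8, an immunophilin of the mitochondrial surface, rose by 0.41 ± 0.07 and fell by 0.29 ± 0.08 (adjusted p = 0.00163 and 0.0216). Trap1 fell by 1.38 ± 0.26 and Hyou1 fell by 0.65 ± 0.12 at GD9:12 against GD9:00 (adjusted p = 0.00277 and 0.00214). Hspb1, a stress-inducible small heat shock protein, was lower than at GD8:15 by -0.91 ± 0.14 at GD9:00 and -0.90 ± 0.15 at GD9:12 in water arrays (adjusted p = 0.000511 and 0.0015).

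Ttc4, an HSP90 co-chaperone, rose at GD9:12 against GD8:15 by 1.07 ± 0.17 in arsenic arrays and 0.79 ± 0.18 in water arrays (adjusted p = 0.000483 and 0.0104). In this comparison in arsenic arrays, the co-chaperones Cdc37, Fkbp4 and St13 gave differences of -1.31 ± 0.36, -0.87 ± 0.25 and -0.72 ± 0.17 (adjusted p = 0.0202, 0.026 and 0.00859). Both probes of Canx, a lectin chaperone of the ER, rose by 1.94 ± 0.57 and 0.66 ± 0.22 (adjusted p = 0.0283 and 0.0494). Here the title code and the stage cannot be told apart.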
